A study of Homo sapiens with 12 samples.

Results

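Contractile and actin-filament genes were followed through polysome-associated RNA of 3 triple-negative breast cancer cell lines. The 10 genes are LMCD1, TPM1, TPM2, MYLK, MYL9, MYL6, ACTA2, TAGLN, CNN1 and CALD1, out of 24559 gene symbols in the deposited table, and all 10 were among the 16538 that passed the filter on low counts. The genes were chosen on their values in the comparisons of TRMT112 knockdown or overexpression with control, so those comparisons are given here as a description, without p-values for these genes. Comparisons between the control groups of the 3 lines were not named by that choice and were tested. The genes were listed across all 6 groups, for TPM1 and MYLK also by transcript. The control libraries are also part of the comparisons used for the choice. These tests are therefore not independent of it, and their p-values are given as a description.

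MDA-MB-231, SUM159 and BT549 are established human lines of mesenchymal-like triple-negative breast cancer. The methyltransferase cofactor TRMT112 was knocked down (KD) with an shRNA in MDA-MB-231 and in SUM159 and overexpressed (OE) from an expression plasmid in BT549, and each line had its own control, labelled EV. According to the study's methods, the control of the knockdown was a non-silencing shRNA vector and that of the overexpression an empty plasmid, all constructs were transfected, and the cells were selected with puromycin or G418. Nothing in the sources used here says whether a line was 1 clone or a pool. Each of the 6 groups had 2 libraries, 12 in all, and the labels give no further treatment. SUM159 was grown with insulin and hydrocortisone, BT549 in another base medium and MDA-MB-231 without these additions, so line and medium cannot be told apart. Cells were lysed with cycloheximide, lysates were run on sucrose gradients, and RNA of the pooled polysome fractions was sequenced. No libraries of total RNA were used, so more mRNA and a larger share of an mRNA on polysomes cannot be told apart, and in bulk RNA the same holds for more expressing cells and more RNA per cell.

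Smooth muscle and non-muscle cells contract when myosin II pulls on actin filaments. MYLK, the calcium-calmodulin dependent myosin light chain kinase, phosphorylates the regulatory light chain MYL9, and MYL6 is the essential light chain of the same motor. ACTA2 is smooth muscle alpha-actin, tropomyosins (TPM1, TPM2) wind along the filament, and TAGLN, CNN1 and CALD1 bind filaments and are classical smooth muscle and myofibroblast markers. LMCD1 is a LIM and cysteine-rich domain protein known as a cofactor of GATA6 and of calcineurin signalling in heart and smooth muscle. Several of these genes are textbook targets of serum response factor, which binds the CArG box.

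Coordinates are those of GRCh38. Totals lay between 22954226 and 27434677 expected counts per library, and the median absolute log2 difference between the 2 libraries of a group was between 0.063 and 0.079. Nothing in the sources used here says that the libraries came from separate cultures, so tests measure the spread between libraries only. TRMT112 followed its labels: normalized counts were 4147 and 3938 in MDA-MB-231 EV against 1764 and 1682 in KD, 6332 and 6566 in SUM159 EV against 3909 and 3699 in KD, and 3076 and 3087 in BT549 EV against 4286 and 4319 in OE. A normalized count here is the count scaled to the same effective library size (TMM). PGR, the progesterone receptor, had 0 counts in 10 libraries and 3 and 9 counts in BT549 EV. The estrogen receptor ESR1 was not analysed here. The receptor ERBB2 had mean normalized counts of 1475 in MDA-MB-231 EV and 1412 in KD, and of 2693 and 2628 in SUM159. In BT549 ERBB2 was at 3360 in EV and 1707 in OE. The mesenchymal markers VIM and FN1 were present in every group, with a summed normalized count of 30439 to 31351 in MDA-MB-231 EV and 31069 to 31679 in KD, 51364 to 52124 in SUM159 EV and 51138 to 53098 in KD, and 49522 to 49719 in BT549 EV and 17880 to 18666 in OE. In SUM159 KD they moved in opposite directions, VIM from 46019 and 46672 to 38034 and 35891 and FN1 from 5345 and 5452 to 15064 and 15247. The epithelial markers summed to 15387 to 15978 in MDA-MB-231 EV and 17822 to 18151 in KD, to 9809 to 10249 in SUM159 EV and 12689 to 13394 in KD, and to 82.1 or less in BT549, where EPCAM and KRT14 were at or under 3 counts. Among them CDH1 went the other way and was highest in BT549. Its mean normalized counts were 57.2 in BT549 EV and 20.7 in OE, 1.83 and 7.13 in MDA-MB-231, and 0 and 0.432 in SUM159. In SUM159 the keratin KRT8 was at 4910 and 4944 in EV and 8738 and 8311 in KD, whereas KRT14 had 165 and 166 counts in EV and 0 in both KD libraries. Of 4 smooth muscle markers outside the 10 genes (MYH11, DES, ACTG2 and MYOCD, with LMOD1 not analysed here), 0 of 4 were above 3 counts in BT549 EV and 3 of 4 in each other group. Their summed normalized count was 152 to 156 in MDA-MB-231 EV and 120 to 122 in KD, 24.1 to 28.3 in SUM159 EV and 24.2 to 45.0 in KD, and 2.19 to 2.21 in BT549 EV and 117 to 150 in OE. MYOCD, the smooth muscle coactivator of serum response factor, had at most 2 counts and MYH11, the smooth muscle myosin heavy chain, at most 10 in any library. DES, or desmin, had 0 counts in both BT549 EV libraries and 117 and 89 in BT549 OE, at least 69.8-fold higher against 3 counts over the EV group, and ACTG2 had 0 and 0 against 10 and 8. Their part in the results below was not tested.

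Promoter windows of the genes are shown first because the transcripts counted below begin at several starts. RefSeq (GRCh38.p14) gave 13 windows, 250 bases before to 50 bases after a start, for 8 of the 10 genes. MYL9 and TAGLN had none. The windows below are those of the internal TPM1 start, of the MYLK start that gives the short product telokin, of the downstream ACTA2 start and of LMCD1. Capitals mark the CArG box, CATTCC (a TEAD element) or GGGCGG (a GC box), read on both strands, and the GC boxes of TPM1 overlap.

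TPM1, chr15:63048239-63048538, plus strand: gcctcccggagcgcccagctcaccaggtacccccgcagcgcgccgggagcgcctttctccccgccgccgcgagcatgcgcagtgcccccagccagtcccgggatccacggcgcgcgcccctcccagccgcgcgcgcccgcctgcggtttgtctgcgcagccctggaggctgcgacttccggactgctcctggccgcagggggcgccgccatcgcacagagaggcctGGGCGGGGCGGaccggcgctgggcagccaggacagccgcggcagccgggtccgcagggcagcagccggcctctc
MYLK, chr3:123620499-123620798, minus strand: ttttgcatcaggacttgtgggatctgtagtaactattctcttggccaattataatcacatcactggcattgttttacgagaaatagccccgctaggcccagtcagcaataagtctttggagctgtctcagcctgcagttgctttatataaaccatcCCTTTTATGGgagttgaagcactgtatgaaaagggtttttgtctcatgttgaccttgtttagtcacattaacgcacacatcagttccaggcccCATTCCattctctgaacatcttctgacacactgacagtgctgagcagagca
ACTA2, chr10:88952724-88953023, minus strand: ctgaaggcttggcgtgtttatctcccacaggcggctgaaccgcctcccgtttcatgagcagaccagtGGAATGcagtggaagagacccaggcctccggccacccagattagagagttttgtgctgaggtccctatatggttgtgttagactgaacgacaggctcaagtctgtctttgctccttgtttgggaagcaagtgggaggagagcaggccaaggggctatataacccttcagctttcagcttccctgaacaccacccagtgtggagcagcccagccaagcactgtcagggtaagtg
LMCD1, chr3:8501573-8501872, plus strand: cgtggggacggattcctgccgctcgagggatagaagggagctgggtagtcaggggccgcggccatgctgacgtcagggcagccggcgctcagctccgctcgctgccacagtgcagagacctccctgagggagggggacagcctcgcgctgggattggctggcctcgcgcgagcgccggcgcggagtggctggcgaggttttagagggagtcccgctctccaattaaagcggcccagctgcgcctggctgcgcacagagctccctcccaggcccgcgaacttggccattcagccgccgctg

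The CArG box was searched in its strict form, CC and GG around 6 bases that are each A or T, so that elements with a single mismatch are not counted. It was found in 1.29% of 35116 RefSeq promoters of the same length and, among the 13 windows, in that of MYLK alone, which says nothing of near matches in the other windows. The only TPM1 window was that of the internal start, and the only MYLK window that of telokin. The first start of TPM1 and the other starts of MYLK had no window and were not searched. CATTCC was found in 14.0% of all promoters and in 4 of the 13 windows, of ACTA2, CALD1 and MYLK. GGGCGG was found in 45.0% of all promoters and in 7 windows, and TATAAA in 11.5% and in 2 windows. The windows of TPM2 overlap and share GGGCGG words, so that gene is counted more than once. The CALD1 window at 134711249 to 134711548 had 0 listed transcripts at its start. The LMCD1 window held none of these words. A match is a run of letters and not a measured site.

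LMCD1 (chromosome 3, 8501807 to 8574668, plus strand) was higher in every treated group than in its control. Normalized counts were 224 and 224 in MDA-MB-231 EV and 598 and 611 in KD, 217 and 250 in SUM159 EV and 1233 and 1237 in KD, and 27.4 and 26.6 in BT549 EV and 234 and 206 in OE. In each line the treated libraries lay above both control libraries. The fitted log2 fold changes were 1.43 ± 0.09 (SE) in MDA-MB-231, 2.40 ± 0.08 in SUM159 and 3.02 ± 0.17 in BT549. The BT549 OE libraries only came to the level of the MDA-MB-231 and SUM159 controls. All counts of LMCD1 came from transcripts that start within 500 bases of the start in the window shown above. The antisense gene LMCD1-AS1 had between 1 and 24 counts, far below LMCD1 in the MDA-MB-231 and SUM159 libraries, and in BT549 EV it had 2 and 2. The strand setting of the counting is not given in the sources used here, so reads of a gene and of its antisense partner were not told apart.

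**Figure D1:**
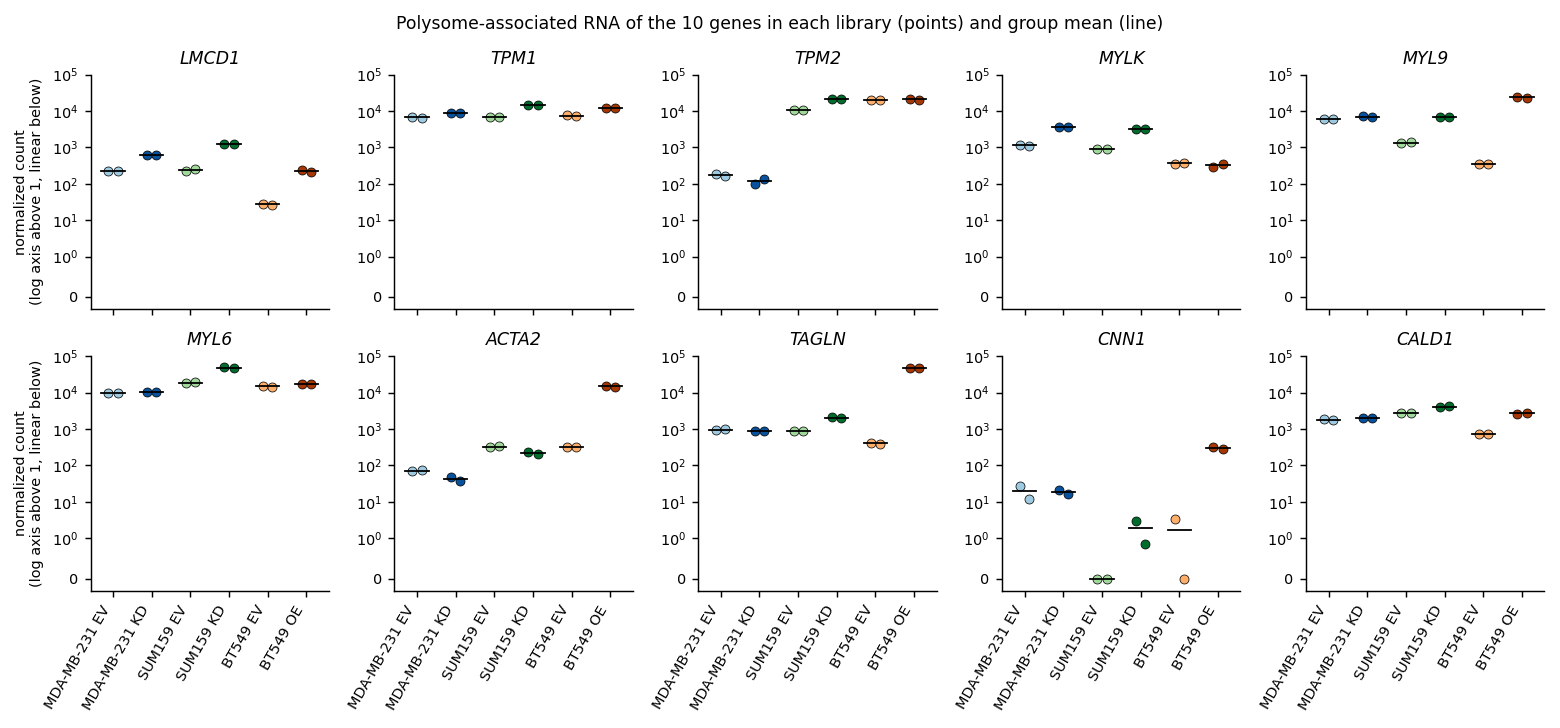
Normalized counts of the 10 genes in each of the 12 libraries (points, log axis above 1 and linear below) and the mean of each group of 2 (line). LMCD1 was higher in every treated group, whereas ACTA2 and TAGLN reached 14396 or more and 46324 or more in BT549 OE only.

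MYLK (chromosome 3, 123610049 to 123884332, minus strand) was higher in both knockdown groups and not in the overexpression group. Its normalized counts were 1131 and 1114 in MDA-MB-231 EV and 3567 and 3532 in KD. In SUM159 they were 877 and 872 in EV and 3167 and 3149 in KD. BT549 had 357 and 380 in EV and 295 and 346 in OE, the lowest level of the 3 lines. The log2 fold changes were 1.66 ± 0.05, 1.85 ± 0.05 and -0.20 ± 0.08. The BT549 value was called lower, but the call was lost when OE library 1 (-0.09) or EV library 2 (-0.16) was left out, with library size alone (-0.18), with no filter on counts (-0.21), with a mean of at least 50 counts (-0.17) and with BT549 fitted alone (-0.22). MYLK-AS1, which overlaps the gene on the other strand, had 77 and 86 counts in SUM159 EV and 162 and 167 in KD, and at most 25 in any library of the other lines.

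MYL9, the substrate of the kinase, had a different order (chromosome 20, 36541497 to 36551447, plus strand). MDA-MB-231 held 6187 and 5960 normalized counts in EV and 7125 and 6840 in KD. SUM159 went from 1300 and 1413 to 6802 and 6729, so that its KD libraries came to the level of MDA-MB-231. BT549 went from 359 and 353 in EV to 24180 and 22660 in OE, a 65.8-fold difference of the means. The log2 fold changes were 0.20 ± 0.04, 2.32 ± 0.04 and 6.04 ± 0.05. Reads of MYL9 can be shared with its near copies MYL12A and MYL12B, and how they were divided is not given in the sources used here.

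MYL6, the essential light chain (chromosome 12, 56158346 to 56163496, plus strand), was the most abundant of the 10 genes per length in the control libraries. Its normalized counts were 9536 and 9900 in MDA-MB-231 EV, 10473 and 10208 in KD, 17987 and 19345 in SUM159 EV and 48908 and 47143 in KD. BT549 had 14749 and 14616 in EV and 17081 and 16699 in OE. The SUM159 change was 1.36 ± 0.03 on the log2 scale, whereas the others were 0.09 ± 0.03 and 0.20 ± 0.03. SMARCC2, which overlaps MYL6 on the other strand, was at 1792 and 1700 in SUM159 EV and 1056 and 1042 in KD. The MDA-MB-231 call of MYL6 was lost with scaling by library size alone, where the change was -0.00061, with a mean of at least 50 counts (0.08) and without EV library 1 (0.06) or KD library 1 (0.07).

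TPM1 (chromosome 15, 63042620 to 63071915, plus strand) was higher in all treated groups. Normalized counts were 6895 and 6521 in MDA-MB-231 EV and 9037 and 8846 in KD, 6692 and 6825 in SUM159 EV and 14809 and 14693 in KD, and 7491 and 7268 in BT549 EV and 12310 and 12080 in OE. The control groups of the 3 lines held similar counts, not corrected for length, and no control library reached a treated one. The log2 fold changes were 0.41 ± 0.03, 1.13 ± 0.03 and 0.72 ± 0.03. TPM1-AS, antisense to the internal start, had between 3 and 37 counts.

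TPM2 (chromosome 9, 35681992 to 35690056, minus strand) was low in MDA-MB-231 and high in SUM159 and BT549. MDA-MB-231 held 182 and 164 normalized counts in EV and 99.3 and 133 in KD. SUM159 held 10682 and 10940 in EV and 21662 and 21896 in KD, and BT549 held 20028 and 19470 in EV and 21315 and 19919 in OE. The SUM159 KD libraries came near the BT549 level, and in BT549 the libraries overlapped and the change was not called (0.06 ± 0.03). It was called without OE library 2 (0.11), with library size alone (0.08) and with a mean of at least 50 counts (0.09). The other log2 fold changes were -0.58 ± 0.13 in MDA-MB-231 and 1.01 ± 0.03 in SUM159. The tropomyosins share long stretches of sequence, so a division of reads among TPM1, TPM2, TPM3 and TPM4 is uncertain in these estimates.

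ACTA2 (chromosome 10, 88935074 to 88991339, minus strand) was lower in both knockdown groups and 45.9-fold higher in the overexpression group. MDA-MB-231 had 69.6 and 72.1 normalized counts in EV and 48.7 and 36.6 in KD. SUM159 had 315 and 334 in EV and 236 and 210 in KD. BT549 had 321 and 319 in EV and 14939 and 14396 in OE. No control library overlapped a treated one, and the log2 fold changes were -0.73 ± 0.18, -0.55 ± 0.09 and 5.52 ± 0.05. Without KD library 2 the MDA-MB-231 change was -0.54 and was not called. Actins are near copies of each other, ACTA2-AS1 had at most 1 count, and FAS and STAMBPL1 overlap ACTA2 on the other strand. In BT549 FAS was at 658 and 732 in EV and 2319 and 2314 in OE, and STAMBPL1 at 571 and 605 in EV and 131 and 146 in OE.

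TAGLN, or transgelin (chromosome 11, 117199370 to 117207464, plus strand), showed the greatest difference of means in BT549 among the 9 genes other than CNN1. It had 402 and 396 normalized counts in BT549 EV and 47225 and 46324 in OE, a 117-fold difference. SUM159 had 850 and 854 in EV and 2060 and 1965 in KD. MDA-MB-231 had 932 and 986 in EV and 897 and 884 in KD and was not called (-0.11 ± 0.05), although its libraries did not overlap. It was called without EV library 1 (-0.15), with library size alone (-0.20) and with a mean of at least 50 counts (-0.12). The SUM159 and BT549 changes were 1.24 ± 0.04 and 6.87 ± 0.04 on the log2 scale. PCSK7, which overlaps TAGLN on the other strand, was at 931 and 976 in SUM159 EV and 2417 and 2266 in KD (1.30 ± 0.05), and at 3810 and 3666 in BT549 EV and 2839 and 2631 in OE (-0.45 ± 0.05). Beside the SUM159 KD values stand the VIM, FN1, KRT8 and KRT14 values above, whose part was not tested. Beside the high ACTA2, TAGLN, MYL9 and CNN1 of BT549 OE, DES and ACTG2 were also higher there and VIM and FN1 together lower (values above), and their part was not tested.

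CNN1, or calponin 1 (chromosome 19, 11538767 to 11550323, plus strand), was near the limit of detection outside BT549 OE. Its counts were 29 and 13 in MDA-MB-231 EV and 23 and 17 in KD, with overlapping libraries and a log2 fold change of -0.04 ± 0.43 that ran from -0.52 to 0.67 when single libraries were left out. SUM159 had 0 and 0 in EV and 3 and 1 in KD, a difference not detectable at this depth, so no fold is given. BT549 had 3 and 0 in EV and 282 and 246 in OE. That ratio of counts was 179, with an exact 95% interval from 60.9 to 871 that covers counting error only.

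CALD1, or caldesmon (chromosome 7, 134744252 to 134970729, plus strand), was higher in all treated groups. Normalized counts were 1846 and 1760 in MDA-MB-231 EV and 1990 and 1993 in KD, 2708 and 2780 in SUM159 EV and 3898 and 4141 in KD, and 722 and 745 in BT549 EV and 2592 and 2757 in OE. The log2 fold changes were 0.14 ± 0.05, 0.55 ± 0.04 and 1.87 ± 0.05, and the libraries did not overlap in any line. The MDA-MB-231 change was not called with library size alone (0.05), nor without EV library 2 (0.11), KD library 1 (0.15) or KD library 2 (0.15).

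**Figure D2:**
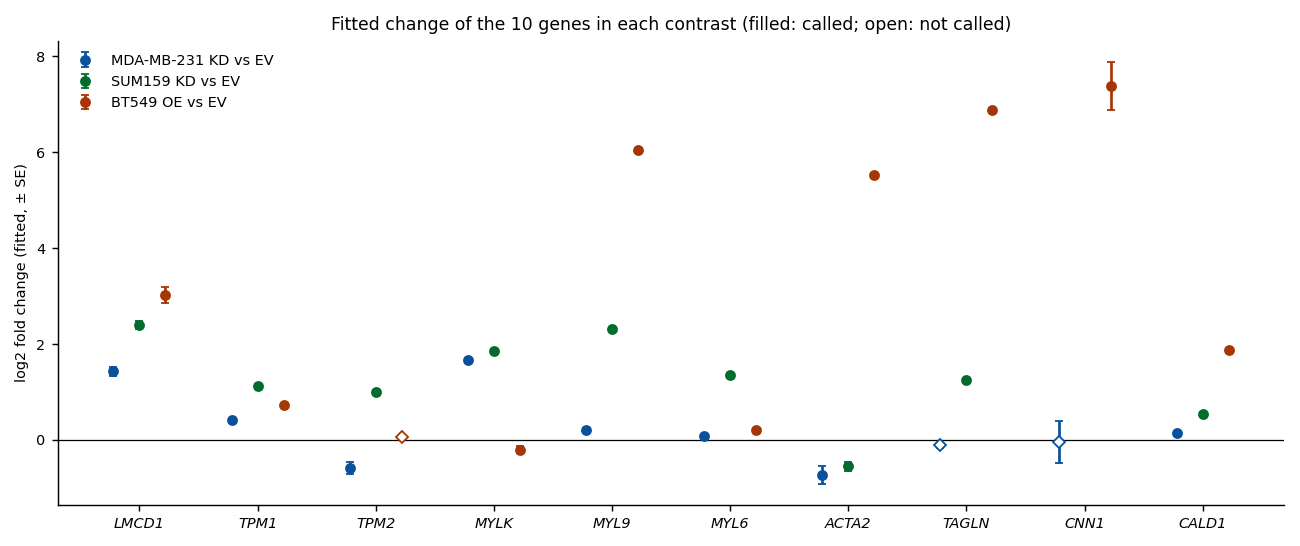
Fitted log2 fold change with its standard error for the 10 genes in the 3 comparisons of treated with control libraries (2 against 2 each). Filled points were called at an adjusted p-value under 0.05 and open diamonds were not, and CNN1 in SUM159 is left out because no library there had more than 3 counts. MYL9, ACTA2 and TAGLN stood between 5.52 and 6.87 in BT549 and at or below 2.32 elsewhere.

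By the call at an adjusted p-value under 0.05 (edgeR's quasi-likelihood test with Benjamini-Hochberg adjustment over all genes), 6 of the 10 genes were higher and 2 lower in MDA-MB-231 KD, against 21.2% and 16.5% of all genes tested. In SUM159 KD 8 were higher and 1 lower, against 28.6% and 31.4%. In BT549 OE 8 were higher and 1 lower, against 35.6% and 35.0%. Since the genes were chosen on these comparisons, nothing is read from the counts. The libraries of the compared groups did not overlap for 9, 10 and 9 of the genes. The 10 in SUM159 include CNN1, with 0 and 0 counts against 3 and 1. The share of all genes without overlap is not given here, so nothing is read from these numbers either. The median log2 fold change of the 10 genes was 0.12, 1.30 and 2.44, beside 0.00, 0.00 and 0.02 over all genes, and without CNN1, which had no fold there, the SUM159 median was 1.24. In all, 5 of the genes, LMCD1, TPM1, MYL9, MYL6 and CALD1, were called higher in both knockdown lines and in the overexpression line. Over all genes 3.86% were so. The MDA-MB-231 calls of MYL6 and CALD1 were lost with library size alone and in other settings given above, so nothing is read from this count. TRMT112 itself was lower in the knockdown groups and higher in the overexpression group.

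The knockdown effect was called larger in SUM159 than in MDA-MB-231 for 8 of the 10 genes, where 50.9% of all genes were called for a difference in either direction. This difference is built from the comparisons the genes were chosen on, so it is a description and nothing is read from the count. The difference, MDA-MB-231 minus SUM159 on the log2 scale, went from -0.19 ± 0.07 for MYLK to -2.12 ± 0.06 for MYL9. TPM2 was called in opposite directions in the 2 lines. For ACTA2 the difference was -0.18 ± 0.20 and was not called.

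In the control libraries, levels per length (TPM, computed from the deposited counts and annotated transcript lengths) placed MYL6 first in each line, at 1240 ± 34.9 in MDA-MB-231, 2050 ± 87.4 in SUM159 and 1430 ± 1.59 in BT549 (SD, n = 2). TPM1 followed in MDA-MB-231 (488 ± 20.0), and TPM2 in SUM159 (714 ± 6.86) and BT549 (1180 ± 15.2). TPM2 stood at only 12.9 ± 0.699 in MDA-MB-231. At the other end were LMCD1 (17.1, 13.8 and 1.68 TPM in the order MDA-MB-231, SUM159, BT549), MYLK (16.1, 11.7 and 3.91), ACTA2 (3.60, 14.9 and 13.2) and CNN1 (1.13, 0 and 0.187). In SUM159, LMCD1 and ACTA2 differed by less than the spread of LMCD1 (SD 2.38). In BT549 OE TAGLN came to 2020 TPM in both libraries, above the 1580 and 1590 of MYL6 and the 707 and 699 of ACTA2.

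Between the control groups, 8 of the 10 genes differed in SUM159 against MDA-MB-231 (75.7% of all genes), 10 in BT549 against MDA-MB-231 (79.5%) and 8 in BT549 against SUM159 (78.4%), near the shares of all genes. Genes whose transcripts were all at 0 in the BT549 libraries are not listed and are not in these shares. The greatest difference was that of TPM2, which was 62.5-fold higher in SUM159 than in MDA-MB-231 (log2 5.97 ± 0.06, edgeR adjusted p = 5.62e-28) and 114-fold higher in BT549 (6.84 ± 0.06, adjusted p = 2.3e-29). It was the one gene of the 10 called higher in SUM159 than in MDA-MB-231 and higher again in BT549, by 0.87 ± 0.03 over SUM159 (adjusted p = 1.08e-16). MYL9 had the opposite order, lower in SUM159 than in MDA-MB-231 by 2.16 ± 0.04 on the log2 scale (adjusted p = 2.55e-22) and lower again in BT549 by 1.93 ± 0.07 (adjusted p = 5.05e-18). MYLK had the same order as MYL9, with -0.36 ± 0.06 (adjusted p = 3.53e-06) and -1.25 ± 0.07 (adjusted p = 5.23e-14).

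LMCD1 did not differ beyond its spread between MDA-MB-231 and SUM159 (0.06 ± 0.10, edgeR adjusted p = 0.598). It was lower in BT549 than in SUM159, with mean normalized counts of 27.0 against 233.7 (edgeR adjusted p = 2.78e-14). ACTA2 was 4.58-fold higher in SUM159 (adjusted p = 1.67e-14) and 4.51-fold higher in BT549 (adjusted p = 2.09e-14) than in MDA-MB-231, and SUM159 and BT549 did not differ beyond their spread (-0.02 ± 0.08, adjusted p = 0.836). CALD1 was highest in SUM159, by 0.61 ± 0.05 over MDA-MB-231 (adjusted p = 1.83e-11) and 1.90 ± 0.05 over BT549 (adjusted p = 7.75e-20). TAGLN was lower in BT549 than in MDA-MB-231 by 1.27 ± 0.06 (adjusted p = 7.24e-16), and its difference between SUM159 and MDA-MB-231 was -0.17 ± 0.05 (adjusted p = 0.00242). Without MDA-MB-231 EV library 2 that difference was -0.13 and was not called. MYL6 was higher in SUM159 than in MDA-MB-231 by 0.94 ± 0.03 (adjusted p = 5.96e-18) and in BT549 by 0.60 ± 0.03 (adjusted p = 3.4e-14). CNN1 was at least 12.9-fold lower in SUM159 than in MDA-MB-231, against 3 counts over the group, and the ratio of its counts in BT549 EV to those in MDA-MB-231 EV was 0.0849, with an exact 95% interval from 0.0168 to 0.266. TPM1 did not differ beyond its spread between MDA-MB-231 and SUM159 (0.01 ± 0.03, adjusted p = 0.764). By counts TPM1 was 0.14 ± 0.03 higher in BT549 than in MDA-MB-231 and 0.13 ± 0.03 higher than in SUM159 (edgeR adjusted p = 0.000376 and 0.000908). These differences turned to -0.18 and -0.09 with scaling by library size alone. Per length the order was the other way, with 305 TPM in BT549, 488 in MDA-MB-231 and 373 in SUM159.

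The similar TPM1 count totals of the lines were made of different transcripts. Per length the totals differed, at 488 ± 20.0, 373 ± 5.58 and 305 ± 7.82 TPM in MDA-MB-231, SUM159 and BT549 EV. TPM1 transcripts begin either at the first start (63042620 to 63042830, 18 transcripts), which gives the high molecular weight tropomyosins, among them the muscle forms, or at the internal start shown above (63048169 to 63048826, 13 transcripts), which gives the low molecular weight forms of non-muscle cells. The first start held 12.4% and 10.0% of the TPM1 counts in MDA-MB-231 EV, 83.2% and 81.0% in SUM159 EV and 92.0% and 92.1% in BT549 EV. MDA-MB-231 thus used mainly the internal start and the other lines mainly the first. Transcript usage of TPM1 differed between the control groups in a gene-level test (diffSpliceDGE of edgeR), with an adjusted p = 3.13e-79 for SUM159 against MDA-MB-231, 1.32e-81 for BT549 against MDA-MB-231 and 1.52e-41 for BT549 against SUM159.

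TPM1-206, from the first start, held 6251 and 6152 normalized counts in BT549 EV, 3691 and 3643 in SUM159 EV and under 1 in each MDA-MB-231 library. TPM1-223, from the internal start, held 2286 and 2479 in MDA-MB-231 EV and 25.6 or fewer in every library of the other lines. Both transcripts are protein coding, and both set MDA-MB-231 apart from the other lines without overlap. Between SUM159 EV and BT549 EV the TPM1-206 libraries did not overlap. Those of TPM1-223 did, at 8.34 and 2.40 against 0.471 and 3.85. In MDA-MB-231 the first start was instead carried by TPM1-201, with 811 and 624 in EV and 1640 and 1754 in KD. Expected counts divide reads among transcripts that share most exons, so a single transcript's value is less certain than its gene's.

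Both starts of TPM1 had more counts after treatment, in unlike proportions. In MDA-MB-231 the first start went from a mean of 752 to 1751 (2.33-fold) and the internal start from 5930 to 7168 (1.21-fold), and the share of the first start went to 18.7% and 20.5%. In SUM159 the first start went from 5546 to 12737 (2.30-fold) and the internal start from 1213 to 2006 (1.65-fold). In BT549 OE the order was the other way, with 1.60-fold for the first start and 2.23-fold for the internal start. TPM1-220, a further first-start transcript, went from 150 and 109 in BT549 EV to 1964 and 1895 in OE.

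ACTA2 also begins at 2 places, an upstream start at 88991339, inside the annotated FAS gene on the other strand, and the start shown above at 88952773, which gives among others the transcript ACTA2-201. These groups, and those of CALD1, were looked at after the shares had been seen. The downstream start held 0.00267% and 0.21% of the ACTA2 counts in MDA-MB-231 EV, 13.0% and 14.4% in SUM159 EV and 23.8% and 30.7% in BT549 EV. In BT549 OE it held 97.4% in both libraries. Its mean went from 87.2 to 14284 normalized counts between BT549 EV and OE, a 164-fold difference, whereas the upstream start went from 233 to 383, a 1.65-fold difference. In the knockdown groups the share of the downstream start was 21.3% and 0.61% in MDA-MB-231 and 6.55% and 32.8% in SUM159, so that libraries of 1 group were far apart. The upstream start had mean normalized counts of 37.4 in KD and 70.7 in EV of MDA-MB-231, and of 181 and 280 in SUM159. Usage differed between the control groups for SUM159 and BT549 against MDA-MB-231 (edgeR adjusted p = 0.0121 and 0.000792) and not beyond the spread between BT549 and SUM159 (adjusted p = 0.135).

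CALD1 counts came mainly from starts at 134779420 to 134779678 and at 134891458 to 134891610. The second of these held 42.5% and 42.7% in MDA-MB-231 EV and 55.6% and 58.0% in SUM159 EV, but 5.81% and 0.79% in BT549 EV. Only 19 of 24 annotated CALD1 transcripts are listed. Transcripts at 0 in all 4 BT549 libraries are not, so CALD1 shares and totals in the other lines may lack counts. The CALD1 differences between control groups given above have the same limit. BT549 differed in usage from MDA-MB-231 (edgeR adjusted p = 4.36e-14) and from SUM159 (adjusted p = 4.85e-16), and for SUM159 against MDA-MB-231 the adjusted p was 0.218. In MDA-MB-231 KD the starts went opposite ways, with a mean of 526 against 792 in EV at the first of these (0.664-fold) and 1224 against 768 at the second (1.59-fold). In BT549 OE the first had a 4.18-fold higher mean, 2376 against 568.

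MYLK transcripts were spread over more starts. The most upstream start (123884332 to 123884308) gives the long kinase and held between 34.7% and 70.7% of the MYLK counts over the 12 libraries. That share includes MYLK-205, which is annotated as a nonsense-mediated decay transcript and not as protein coding. In SUM159 MYLK-205 had means of 153 in EV and 334 in KD, of 383 and 1551 for the start. Libraries of 1 group differed by as much as 40.8% and 70.7% (BT549 EV), so no share is set against another here. MYLK-257, the main transcript of that start, went from 502 and 433 normalized counts in MDA-MB-231 EV to 1432 and 1439 in KD and from 135 and 274 in SUM159 EV to 1171 and 1148 in KD. Each of the 5 start groups with a mean share over 5% in some group had a higher mean in KD than in EV in both lines, by 2.06-fold to 11.9-fold in MDA-MB-231. In SUM159 it was 2.25-fold to 5.27-fold for 4 of them, and for the start at 123758389 the libraries were at 14.3 and 1.74 in EV and 15.2 and 77.8 in KD, so that its 5.80-fold rests on KD library 2. The telokin start, whose window with the CArG box is printed above, held between 0.153% and 0.718% of the MYLK counts in any library.

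**Figure D3:**
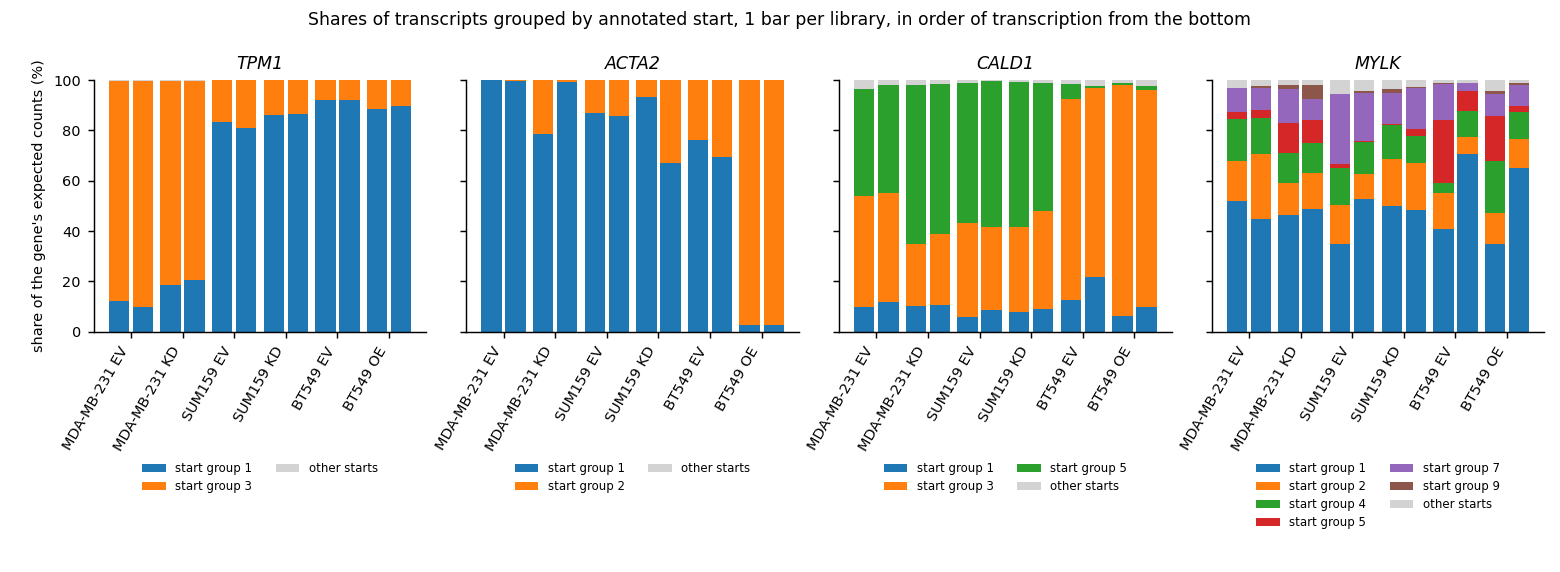
Share of each gene's expected counts that came from each group of annotated transcript starts, 1 bar per library and starts in the order of transcription from the bottom. The first start of TPM1 holds 10.0% to 20.5% in MDA-MB-231 and 81.0% or more elsewhere, and the second start of ACTA2 holds 97.4% in BT549 OE.

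Over the 10 genes, transcript usage differed for 6 in SUM159 EV against MDA-MB-231 EV (27.0% of the genes tested), for 6 in BT549 EV against MDA-MB-231 EV (35.7%) and for 5 in BT549 EV against SUM159 EV (28.0%). TPM1, TPM2, MYLK and MYL6 were called in all 3. Between treated and control libraries it was called for 2 in MDA-MB-231 (1.77%), 3 in SUM159 (4.95%) and 6 in BT549 (14.5%), and TPM1 and MYL6 were called in all 3. For neither set of 3 comparisons is the share of all genes called in all 3 given here, so nothing is read from these names.

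A wider list of 73 contractile genes outside the 10, of which 63 passed the filter, was counted beside them. In MDA-MB-231 KD 29 were called higher and 9 lower, where 21.2% and 16.5% of all genes were. In SUM159 KD 34 were higher and 21 lower, beside 28.6% and 31.4%, and in BT549 OE 36 and 17, beside 35.6% and 35.0%. The median log2 fold change was 0.09, 0.35 and 0.25, beside 0.00, 0.00 and 0.02 over all genes. With a change of at least 2-fold also required, 0 of the 63 were called in MDA-MB-231 (3.20% of all genes), 8 in SUM159 (15.7%) and 26 in BT549 (31.3%). Without that requirement the count in MDA-MB-231 was 38.

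Of the 14 LIM domain and focal adhesion genes, 11 were called higher and 3 lower in BT549 OE with a median of 1.68, beside 35.6% and 35.0% of all genes. With knockdown, 9 were higher and 5 lower in SUM159 (median 0.49), beside 28.6% and 31.4%. For MDA-MB-231 the counts were 5 and 2 (median 0.06), beside 21.2% and 16.5%. No other role is counted in this way here, so nothing is read from these counts. TES, the focal adhesion protein testin, had 10.9 and 21.0 normalized counts in BT549 EV and 2053 and 2042 in OE (6.99 ± 0.13), and also rose in SUM159 KD (3.76 ± 0.11). PDLIM1, a PDZ and LIM protein that binds alpha-actinin, had 23.0 and 27.7 against 2751 and 2716 in BT549 (6.75 ± 0.09), and fell slightly in SUM159 (-0.28 ± 0.03). In MDA-MB-231 TES fell by 0.17 and PDLIM1 rose by 0.30 ± 0.03.

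Among motor and filament genes of the list, both tested non-muscle myosin heavy chains rose in BT549 OE, MYH10 by 2.30 ± 0.08 and MYH9 by 1.19 ± 0.03. In SUM159 KD MYH10 fell by 0.78. The remaining tropomyosins TPM4 and TPM3 rose in SUM159 (0.88 ± 0.02 and 0.31 ± 0.02), and in BT549 TPM4 rose by 1.30 ± 0.02 while TPM3 fell by 0.35. In MDA-MB-231 they changed in opposite directions, TPM4 at -0.22 ± 0.02 and TPM3 at 0.34 ± 0.02. Of the light chains outside the 10 genes, MYL12B rose by 0.24 ± 0.03 and 0.72 ± 0.03 with knockdown and fell by 0.25 with overexpression, and MYL6B was at -0.59 ± 0.10, 0.23 ± 0.09 and 0.69 ± 0.09. The beta-actin gene ACTB was at 0.36 ± 0.02, -0.31 ± 0.02 and 0.53 ± 0.02.

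CNN2, a calponin of non-muscle cells, rose in SUM159 (0.97 ± 0.03) and BT549 (1.17 ± 0.03), and CNN3 rose in SUM159 (0.85 ± 0.04) and fell in BT549 by 0.39. In MDA-MB-231 CNN2 fell by 0.16 and CNN3 rose by 0.26 ± 0.03. Of the actin-binding genes, the filamin FLNC rose in BT549 by 3.86 ± 0.20 and smoothelin, SMTN, by 2.12 ± 0.07, whereas in MDA-MB-231 they were not called (0.12 ± 0.07 and -0.03 ± 0.05). In SUM159 SMTN fell by 0.36 and FLNC had at most 3 counts in any library.

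Of the kinase and phosphatase genes, DAPK1, a calmodulin-dependent kinase, had 1646 and 1593 normalized counts in BT549 EV and 384 and 351 in OE (-2.14 ± 0.10) and at most 5 counts in any other line, and CDC42BPB fell in BT549 by 1.10. SRF rose in all 3 comparisons, by 0.11 ± 0.03, 0.71 ± 0.03 and 0.25 ± 0.03, and its coactivator MRTFB fell in SUM159 by 0.79 and rose in BT549 by 1.05 ± 0.14. The LMCD1 partners GATA6 and PPP3CA fell in SUM159 by 1.25 and 1.05, were not called in BT549 (0.03 ± 0.09 and 0.10 ± 0.06), and in MDA-MB-231 GATA6 was at 0.34 ± 0.13 and PPP3CA at 0.09 ± 0.06. The other listed partner, PPP3CB, named after its values were seen, rose in SUM159 by 0.74 ± 0.05 and in MDA-MB-231 by 0.30 ± 0.05 and was not called in BT549 (0.03 ± 0.04).

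**Figure D4:**
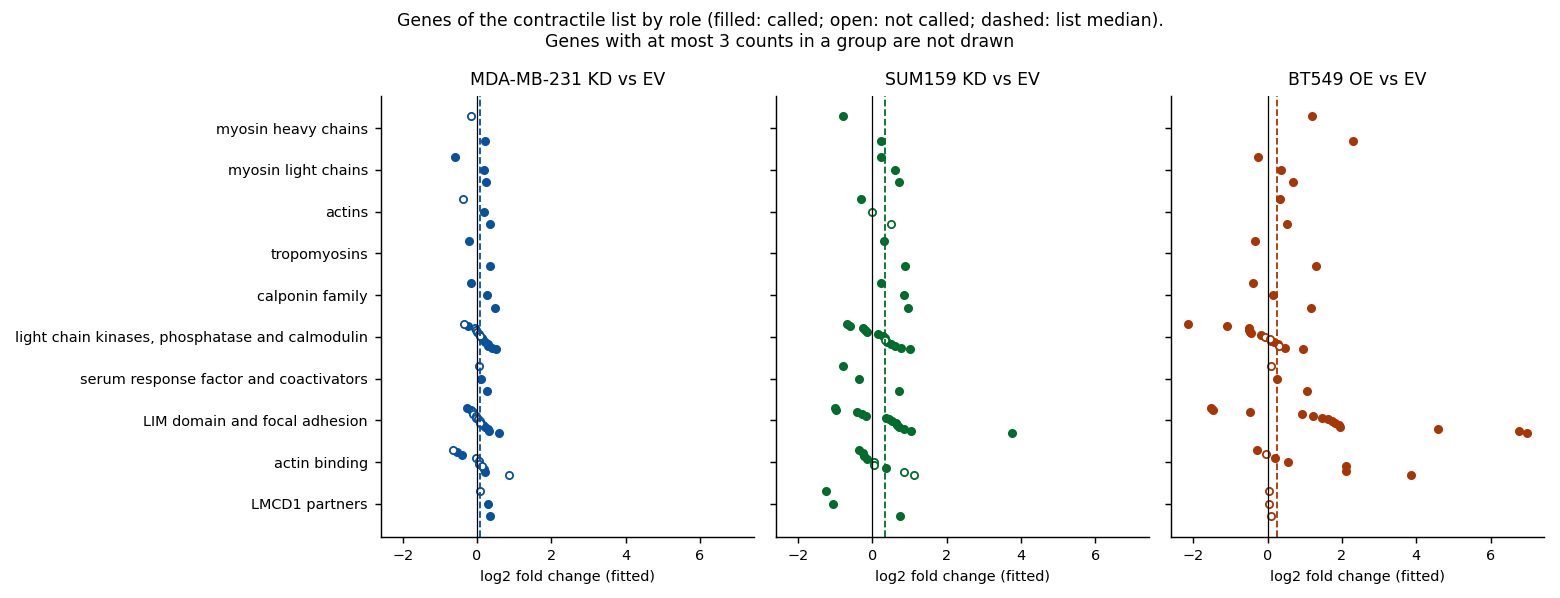
Fitted log2 fold change of tested genes of the contractile list by role in the 3 comparisons, filled where called, with the median of the whole list as a dashed line. The genes of a role not reported here are left out, and genes with at most 3 counts over a group, or in every library of both groups, are not drawn, and the LIM domain genes reach 6.99 in BT549.

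The genes whose mean log2 level over the 6 groups was most like that of LMCD1, out of 12590 with a mean of at least 50 counts, were AGAP3 (Pearson r = 0.989), CWC15 (0.981) and ATP13A2 (0.981). For TPM1 they were CCDC127 (0.980), PLSCR4 (0.961) and EMC8 (0.959), and for MYLK ETFB (0.985), RBPJ (0.984) and TNK2 (0.974). These are descriptions over 6 points of 2 libraries each, with shared controls within a line. Their amplitudes differed: AGAP3 had mean normalized counts of 1802 in BT549 EV and 2392 in OE, 2399 in SUM159 EV and 2912 in KD.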

How the data were processed

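Polysome-associated RNA of 12 libraries was analysed from 1 table of expected counts per Ensembl transcript, deposited by the authors without normalization. Per the labels and the study's methods, the authors used Trimmomatic, HISAT2, GRCh38, SAMtools and Partek, with versions not given in the sources used here. Library preparation is given as rRNA-depleted, stranded total RNA in the methods and as oligo-dT selection in the labels, and the strand setting of the counting is not given in the sources used here. In 5.08% of rows the 8 MDA-MB-231 and SUM159 columns hold a mark in place of a number, so their unit was recorded as other, and the mark was taken as 0. Transcripts at 0 in all 4 BT549 libraries are not listed. Transcripts were matched to GENCODE 44 without version numbers (79.6% of them, at least 99.25% of counts), summed per symbol and rounded.

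Genes kept by filterByExpr were scaled by TMM and fitted with edgeR 4.0.16 in R 4.3.3 (quasi-likelihood, 6 group means, 6 residual degrees of freedom). A call needed a Benjamini-Hochberg adjusted p-value below 0.05. Transcript usage was tested with diffSpliceDGE. Transcripts whose annotated starts lay within 500 bases were 1 start group. TPM was computed from counts and transcript lengths. The code was tested on simulated data. The 10 genes and the lists were chosen with earlier results of these data known. From each role of the contractile list at most 2 genes were named, those with the greatest absolute change in any treatment comparison, where a mean of 50 counts or more was required. The genes of a single role are in the counts of the whole list and are not reported here by name. Alternatives were RLE factors, library size only, DESeq2 1.42.0, other filters, a replicate block, each line alone, marked transcripts left out and each library left out. For ACTA2 and CALD1 starts they were added after the data were seen. Counts of 0 allow up to 3 counts, and intervals cover counting error only.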

Additional observations from a re-analysis of the deposited data

Results flagged for a closer look

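For 8 of the 10 genes the effect of knockdown was called different between MDA-MB-231 and SUM159 by an interaction term, as it was for 50.9% of all genes tested. The genes were chosen on these same knockdown comparisons, so the values are a description and not a test of the genes. The difference, MDA-MB-231 minus SUM159 on the log2 scale, was -2.12 for MYL9, -1.59 for TPM2, -1.35 for TAGLN, -1.27 for MYL6, -0.97 for LMCD1, -0.71 for TPM1, -0.41 for CALD1 and -0.19 for MYLK. All 8 were smaller in MDA-MB-231, and TPM2 was called lower there and higher in SUM159. TRMT112 itself had mean normalized counts of 4042 in MDA-MB-231 EV and 1723 in KD, and of 6449 in SUM159 EV and 3804 in KD. The MYLK difference was lost when a single library was left out, which was so for MDA-MB-231 EV libraries 1 and 2, MDA-MB-231 KD libraries 1 and 2, SUM159 EV libraries 1 and 2 and SUM159 KD library 1 (-0.18 or -0.19 in each), and it was lost without a filter on low counts (-0.17).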

How the results depend on the processing

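Scaling by library size alone shifted all log2 fold changes by -0.31 between BT549 EV and MDA-MB-231 EV, by -0.21 between BT549 EV and SUM159 EV and by at most 0.10 elsewhere. Over all alternatives but the leave-one-out fits, the number of the 10 genes called was 7 to 8 in MDA-MB-231 KD, 9 in SUM159 KD, 8 to 9 in BT549 OE, and 7 to 9, 10 and 8 to 9 between control groups. Over the leave-one-out fits it was 6 to 8, 9 and 8 to 10 in the treated groups and 7 to 8, 10 and 8 to 9 between control groups. Values that changed sign under an alternative were at most 0.14 in size as reported. MYL6 in MDA-MB-231 KD was -0.00061 with library size alone. Between SUM159 EV and MDA-MB-231 EV, LMCD1 was -2.99e-05 with RLE factors, -0.04 with library size alone, -5.2e-05 with DESeq2 and -0.04 to 0.16 over the leave-one-out fits. There TPM1 was -0.05 with RLE factors, -0.09 with library size alone, -0.05 with DESeq2, -0.02 with a mean of at least 50 counts and -0.02 with the replicate block, and -0.03 to 0.05 over the leave-one-out fits. With library size alone TPM1 was -0.18 in BT549 EV against MDA-MB-231 EV and -0.09 against SUM159 EV. ACTA2 between BT549 EV and SUM159 EV was 0.06 with RLE factors and with DESeq2, -0.23 and called with library size alone, and -0.06 to 0.02 over the leave-one-out fits. The cause of these changes was not tested. With a 2-fold change also required, the calls in the contractile list went from 38, 55 and 53 to 0, 8 and 26, by construction.

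Shares of the first start by counts per length were 7.85% and 14.0% for TPM1 in MDA-MB-231 EV and KD, 76.2% and 81.5% in SUM159, 88.0% and 84.8% in BT549, and for MYLK 39.5% and 38.3% in MDA-MB-231 EV and KD and 40.8% in SUM159 KD. The order of the lines for TPM1 was kept. With each line's control before its treated group and the lines in the order MDA-MB-231, SUM159, BT549, the per-length shares of the CALD1 start at 134779420 were 36.7%, 22.4%, 30.6%, 29.0%, 66.4% and 79.2%, against 43.9%, 26.4%, 35.1%, 36.2%, 77.5% and 88.9% by counts. Those of the start at 134891458 were 40.1% and 57.2% in MDA-MB-231, against 42.6% and 61.5%, and moved by less than the spread elsewhere. The most upstream CALD1 start held 11.5% to 24.9% per length and 7.24% to 17.2% by counts. The downstream ACTA2 start moved from 13.7% to 16.4% in SUM159 EV and from 97.4% to 97.9% in BT549 OE. A start window of 100 bases gave the same first-start shares.

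The replicate numbers did not pair the samples: the correlation of same-numbered deviations from the group means was 0.02, -0.02 and 0.00 in the 3 lines. With the replicate block 8, 9 and 9 of the 10 genes were called in the treated groups. The block ended 1 call, that of TAGLN between SUM159 EV and MDA-MB-231 EV (-0.13), as did leaving out MDA-MB-231 EV library 2 (-0.13). A count of 0 does not separate absence from up to 3 counts, which limits CNN1 in SUM159 and BT549 EV. With a lone library left in a group, the fit takes its spread from the other groups.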
